A study of Mus musculus with 12 samples.

Results

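The 8 genes described here encode the repressors of the mammalian circadian clock: the period genes Per1, Per2 and Per3, the cryptochrome genes Cry1 and Cry2, the basic helix-loop-helix repressor genes Bhlhe40 and Bhlhe41, and Ciart. They were chosen by name, from the 21631 protein-coding genes considered, and all 8 were found in the mm10 annotation. For each gene, every deposited HIF1A and ARNT peak that overlapped its annotated span or the 10 kb on either side was collected. Binding was mapped by ChIP-seq, the sequencing of DNA pulled down with an antibody to a bound protein, in NOS1+ N1E115 cells, a mouse neuroblastoma line. All cells were kept for 3 days with 5% CO2, and the groups differed in oxygen (20% or 4% O2) and in the antibody (against HIF1A or ARNT), with 2 peak lists in each of the 4 groups. No transgene or deletion is named in the labels, the cells are a tumour line, and no source used here says whether replicates were separate cultures, so spread between lists may be technical. The lists hold no expression values, so the labelled cell type could not be checked against marker genes, and none of the results below says how much RNA a gene made.

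The clock is a feedback loop. The activators CLOCK and BMAL1 bind the E-box CACGTG and switch on their own repressors, PER and CRY proteins then enter the nucleus and silence CLOCK-BMAL1, BHLHE40 and BHLHE41 (also called DEC1 and DEC2) occupy E-boxes themselves, and CIART (CHRONO) binds BMAL1. HIF1A, which is stabilised when oxygen is low, and its constant partner ARNT belong to the same bHLH-PAS protein family as CLOCK and BMAL1. The HIF1A-ARNT dimer recognises the core of the hypoxia response element, ACGTG or GCGTG. The E-box holds ACGTG on both strands, so a match to the E-box is also a match to that core.

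These letters stand in the promoters of the members. RefSeq promoter sequences of build GRCm38.p6, the same assembly as mm10, matched 6 of the 8 genes with 7 start sites, Per1 having 2, and the members without an entry were Per2 and Bhlhe40. The 250 bases before the start are shown for the 3 promoters that had an E-box and a peak in all 4 lists at 4% O2, and for that of Cry1, which had an E-box and no peak. Capitals mark the E-box and both forms of the hypoxia response element core on either strand, and each sequence is written 5′ to 3′ along its gene.
Ciart, chr3:95882229-95882478, minus strand: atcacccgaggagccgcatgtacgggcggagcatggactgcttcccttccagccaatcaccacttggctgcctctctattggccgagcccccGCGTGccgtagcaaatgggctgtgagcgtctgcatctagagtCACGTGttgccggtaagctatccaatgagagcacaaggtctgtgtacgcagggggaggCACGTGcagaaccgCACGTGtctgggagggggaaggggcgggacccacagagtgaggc
Bhlhe41, chr6:145865421-145865670, minus strand: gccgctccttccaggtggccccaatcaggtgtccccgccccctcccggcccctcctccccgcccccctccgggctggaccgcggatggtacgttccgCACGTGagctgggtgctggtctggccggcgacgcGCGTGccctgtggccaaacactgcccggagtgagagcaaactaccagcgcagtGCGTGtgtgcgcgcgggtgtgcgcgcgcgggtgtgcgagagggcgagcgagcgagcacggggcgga
Per1, start 1, chr11:69098699-69098948, plus strand: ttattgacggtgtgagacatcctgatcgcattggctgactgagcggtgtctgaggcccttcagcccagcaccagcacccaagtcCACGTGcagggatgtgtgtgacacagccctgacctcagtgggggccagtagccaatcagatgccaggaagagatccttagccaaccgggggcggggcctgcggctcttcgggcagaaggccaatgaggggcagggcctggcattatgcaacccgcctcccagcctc
Cry1, chr10:85185055-85185304, minus strand: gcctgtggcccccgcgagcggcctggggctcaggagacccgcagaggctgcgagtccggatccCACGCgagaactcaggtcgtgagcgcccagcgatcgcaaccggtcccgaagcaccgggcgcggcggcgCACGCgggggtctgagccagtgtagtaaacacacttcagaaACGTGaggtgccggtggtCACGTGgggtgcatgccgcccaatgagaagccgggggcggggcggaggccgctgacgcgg

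At 4% O2 all 8 clock repressor genes had HIF1A and ARNT peaks, in every list. A peak in both lists of the group was found at 8 of 8 members for HIF1A, against 34.5% of all protein-coding genes, and at 8 of 8 for ARNT, against 31.6%. At 20% O2 HIF1A was found in both lists at 1 of 8 members (Per1), against 10.7% of all genes, and ARNT at 0 of 8, against 7.25%. All 8 members also had a site at 4% O2 with a peak in at least 1 HIF1A and at least 1 ARNT list, as did 48.0% of all genes. The windows searched had a median length of 42649 bp in the members and 37329 bp in all genes. The members were named with earlier results of these data known, so these counts carry no test.

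**Figure D1:**
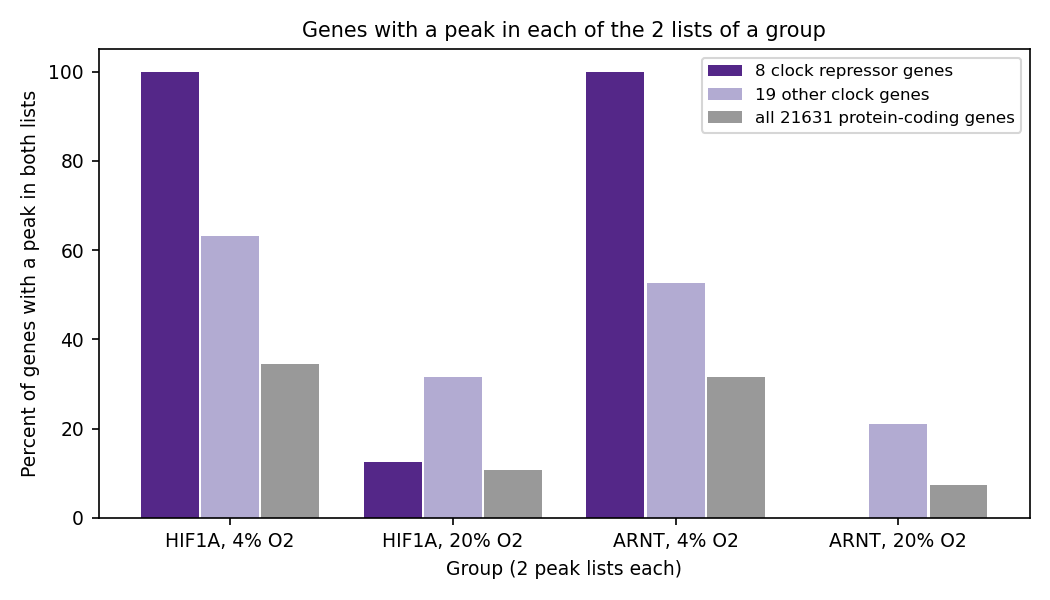
Percent of genes (vertical axis) with a peak in each of the 2 lists of a group (horizontal axis), for the 8 clock repressor genes, 19 other clock genes and all 21631 protein-coding genes, window of gene span plus 10 kb. Both 4% O2 groups reach all 8 repressor genes, while HIF1A at 20% O2 reaches 1 and ARNT at 20% O2 reaches 0.

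The lists differ in length and form, which limits what the 20% O2 counts can show. HIF1A lists held 42701 and 13655 peaks at 4% O2 (replicates 1 and 2) and 5393 and 13386 at 20% O2, and ARNT lists held 24942 and 9920 at 4% O2 and 7252 and 1808 at 20% O2. Both HIF1A replicate 2 lists give 1 bp positions, read here as summits, and the other 6 lists give intervals. At 20% O2 the number of members with a peak differed between lists. HIF1A replicate 1 had 1 member and replicate 2 had 6, and ARNT had 3 in replicate 1 and 0 in replicate 2. The same single lists had a peak at 11.3%, 31.7%, 22.3% and 7.60% of all genes. The ARNT list of replicate 2 at 4% O2, with 9920 peaks, had 8 members, against 35.5% of all genes. Read depth is unknown here, and the part of list length in these differences was not tested.

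**Figure D2:**
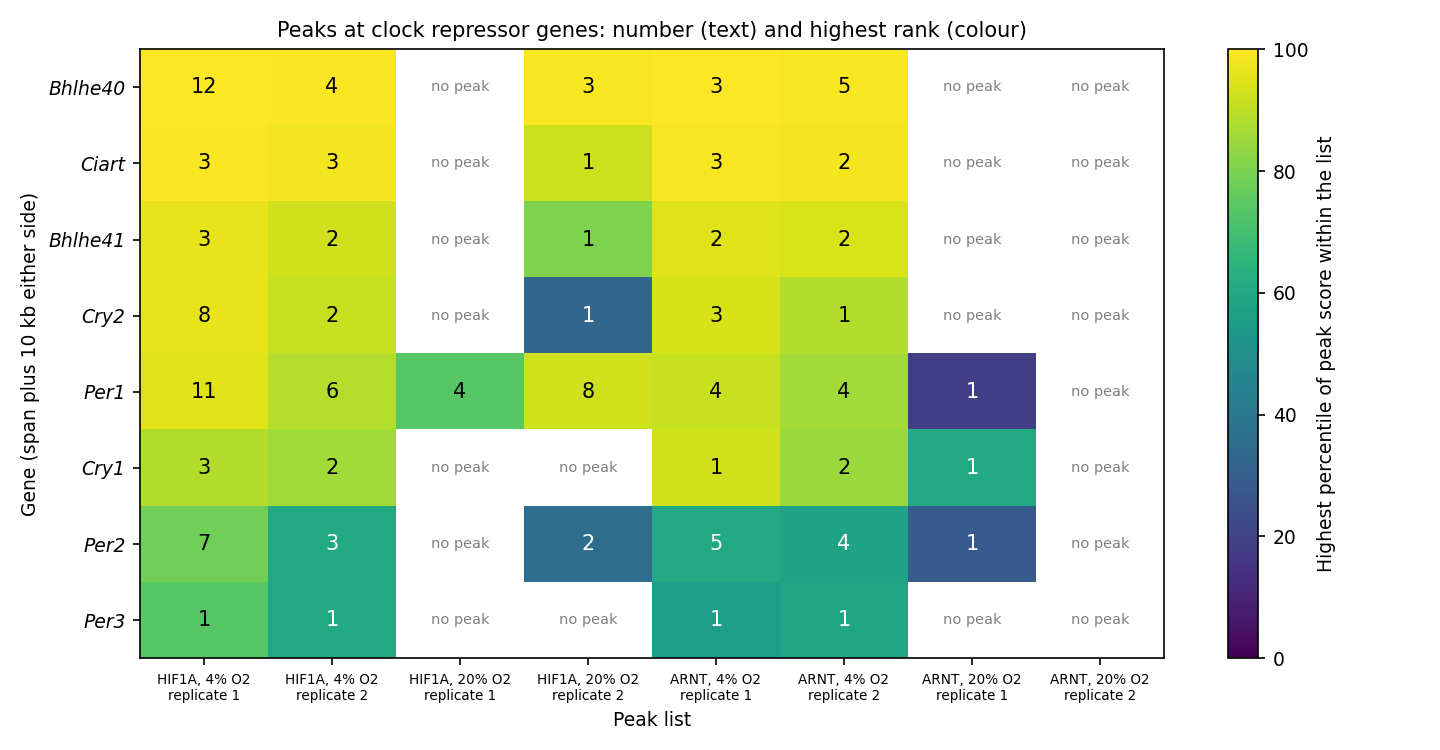
Members (rows, ordered by their mean highest percentile at 4% O2) by peak list (columns). The number of peaks in the window is written in each cell and the colour gives the highest percentile of peak score within the list. Cells of all 4 lists at 4% O2 are filled, and the ARNT list of replicate 2 at 20% O2 is empty throughout.

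Every member had more peaks on average at 4% than at 20% O2, from 1 peak more at Per3 to 5.25 more at Bhlhe40, with a median of 2.75 over the 8, against 1 over the 13224 genes with any peak. This direction was shared by 92.1% of those genes, so it does not set the members apart. In an exact permutation test that exchanged oxygen labels within each antibody (two-sided, 36 arrangements), p was 0.0556 at Per2, Per3, Cry2, Bhlhe40, Bhlhe41 and Ciart, the smallest value the design allows, and 0.111 at Per1 and Cry1. After Benjamini-Hochberg adjustment over the 13224 genes these exact p-values became 0.330 and 0.414. No gene passed an adjusted 0.05 in this permutation test, 0 had an unadjusted p under 0.05, and 16.8% of all tested genes shared the smallest p. Both HIF1A lists at 4% O2 had more peaks than either list at 20% O2 at 7 members (all but Per1), as did 17.1% of all genes. For ARNT the count was 7 (all but Cry1), against 21.2% of all genes. All replicate 1 libraries shared a sequencing lane per the file headers, and within that lane HIF1A peaks were more at 4% O2 by 7 at Per1 and Per2, 1 at Per3, 3 at Cry1, 8 at Cry2, 12 at Bhlhe40 and 3 at Bhlhe41 and Ciart. These were the lists that differed most in length, 42701 against 5393 peaks. Between the HIF1A lists of replicate 2, which were of similar length, Per1 had a difference of -2 peaks, Ciart and Cry1 of 2, and the other 5 members of 1. The ARNT lists of replicate 1 differed by 0 at Cry1, 1 at Per3, 2 at Bhlhe41, 3 at Per1, Cry2, Bhlhe40 and Ciart, and 4 at Per2. Those of replicate 2 differed by 1 at Per3 and Cry2, 2 at Cry1, Bhlhe41 and Ciart, 4 at Per1 and Per2, and 5 at Bhlhe40. Per the file headers, the ARNT libraries of replicate 2 ran on different flow cells at 4% and 20% O2. Flow cell and oxygen cannot be told apart in that pair. Without replicate 1 the mean difference was 1 at Per1 and Cry2, 2.5 at Per2 and 3 at Bhlhe40, and without replicate 2 it was 5 at Per1 and 5.5 at Cry2.

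Merging overlapping peaks of the 8 lists, with summits widened by 75 bp on each side, gave 51 sites at the 8 genes. Of these, 14 sites (27.5%) held a peak in all 4 lists at 4% O2, compared with 12% of the 48072 sites in the genome. ARNT was never found without HIF1A here: 0 of 24 sites with an ARNT peak at 4% O2 lacked a HIF1A peak at 4% O2, against 14.8% of all such sites. HIF1A without ARNT was common, at 25 of 49 sites (51.0%, against 47.1% in the genome), and 19 of the 20 sites present in a single list came from HIF1A at 4% O2 replicate 1, the longest list. Of the 14 sites, 9 had a HIF1A peak at 20% O2 (64.3%, against 59.1%) and 3 an ARNT peak (21.4%, against 22.7%), shares that lie near those of the genome. Peaks at 20% O2 and none at 4% O2 were found at 2 of the 51 sites, both beside tRNA genes near Per1, and at 3.12% of all sites. The sites of the genome, unlike the 51, were not limited to gene spans plus 10 kb. Their shares are therefore not a matched background.

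**Figure D3:**
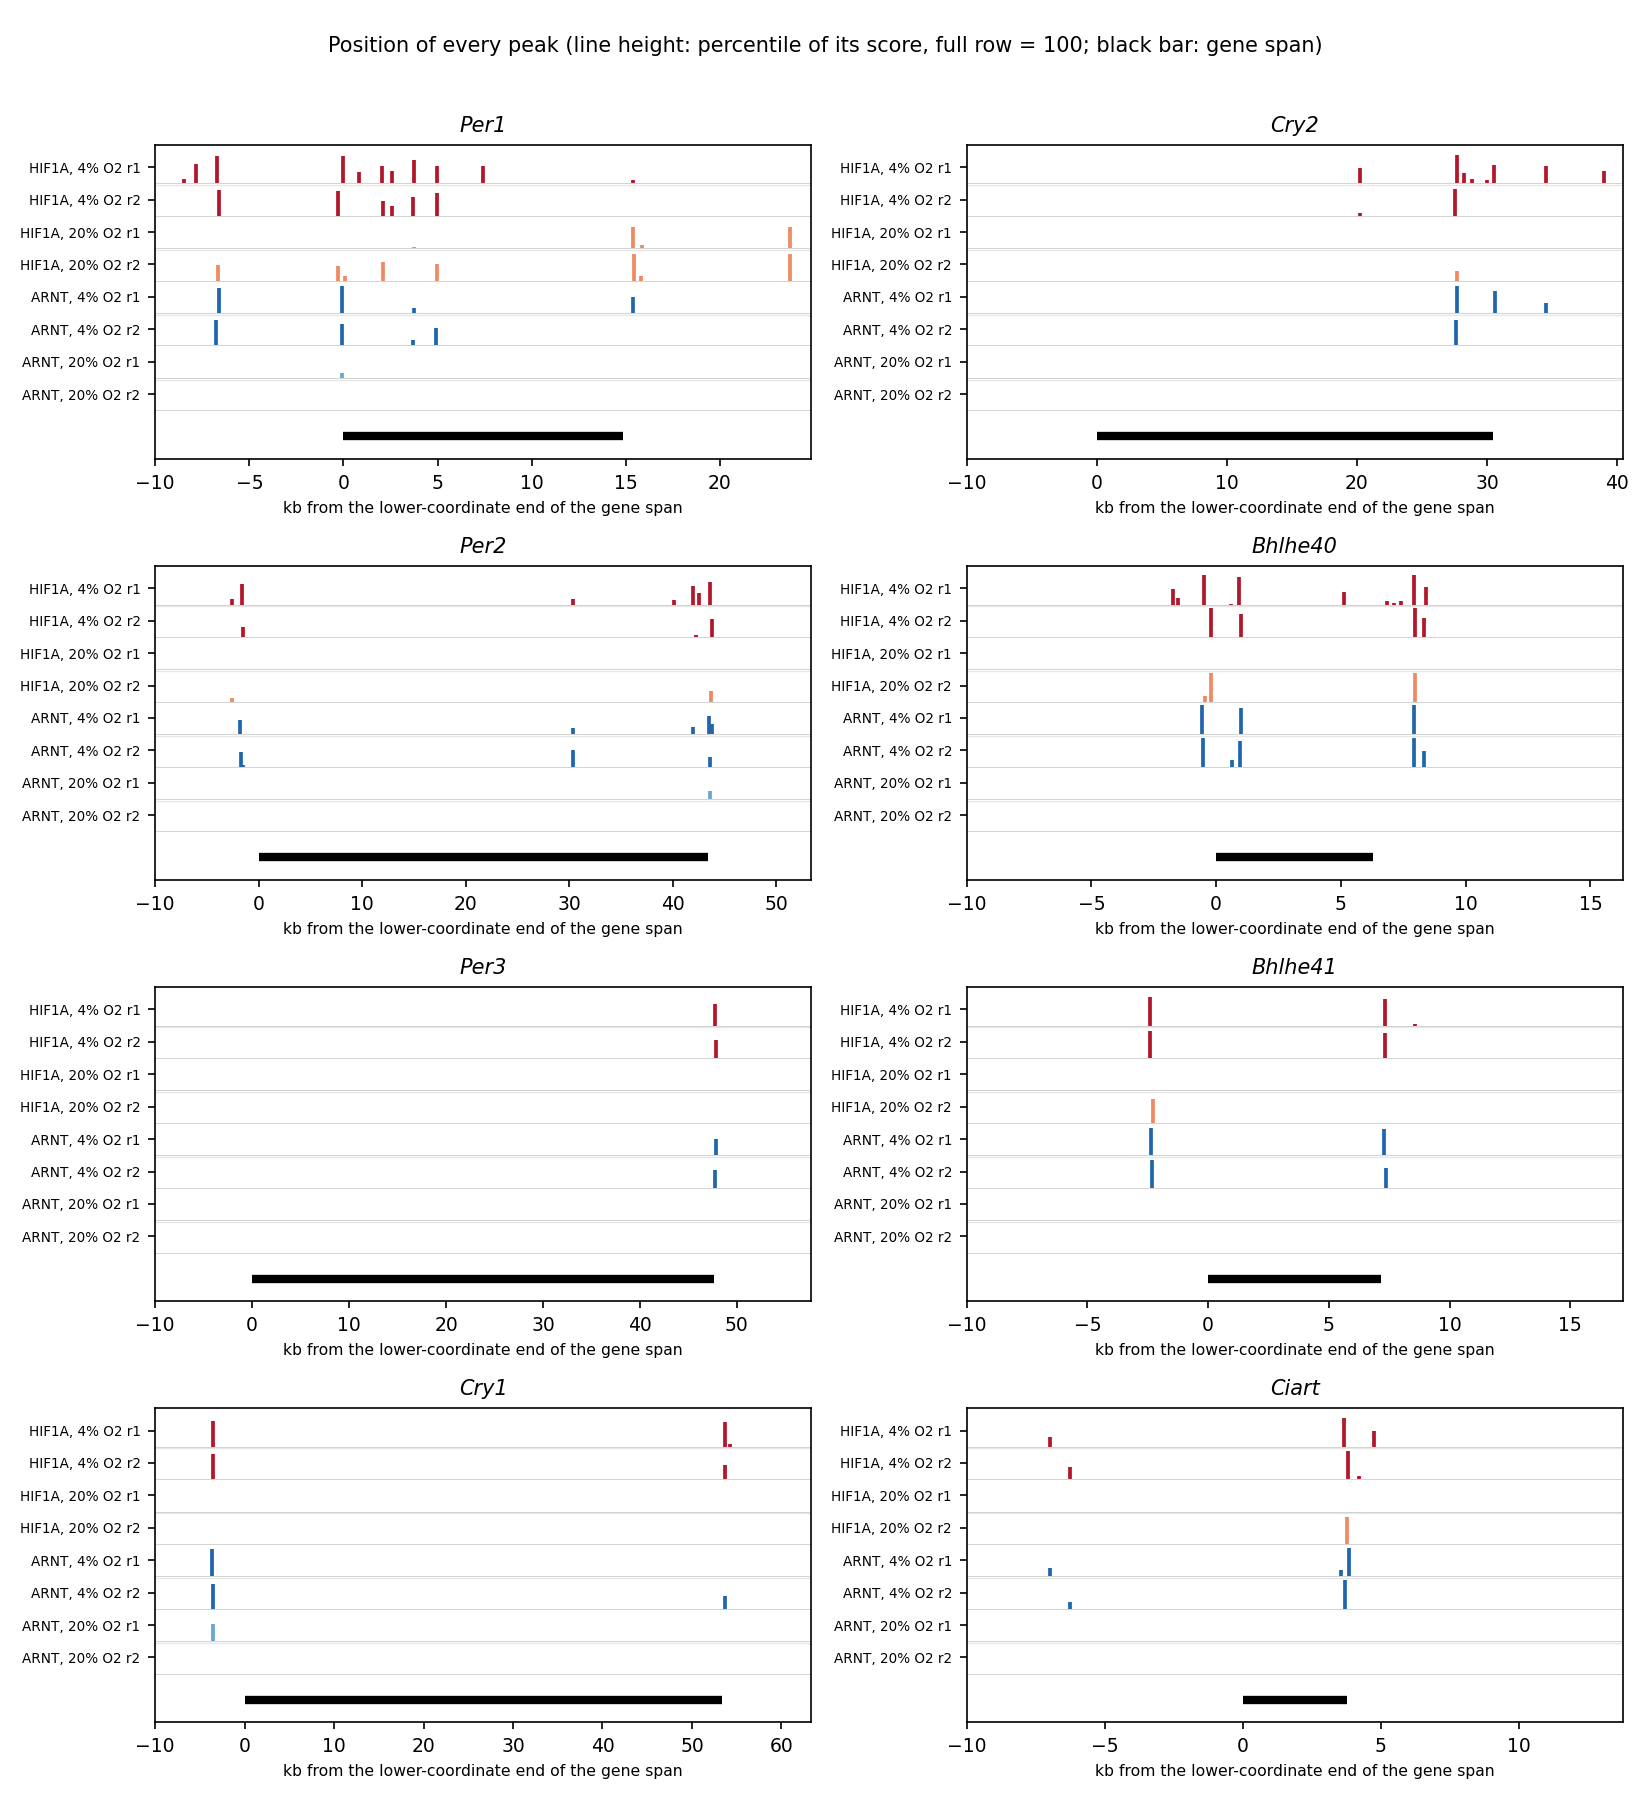
Every peak at the 8 genes by its distance in kb from the lower-coordinate end of the gene span (horizontal axis), in 8 rows per gene, 1 for each list. Line height is the percentile of the peak's score in its own list, and the black bar is the gene span. At 4% O2 the tall lines of Bhlhe40, Bhlhe41, Per3 and Ciart stand at or within a few kb of a gene end, and that of Cry2 stands inside the gene.

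Ranked within its list by the highest-scoring peak anywhere in the window, binding at 4% O2 ran in the order Bhlhe40, Ciart, Bhlhe41, Cry2, Per1, Cry1, Per2 and Per3. Scores are those the authors deposited for each peak, and a percentile of 100 is the highest peak of a list. The mean of the highest percentile over the 4 lists at 4% O2 was 99.6 ± 0.311 at Bhlhe40, 98.7 ± 0.477 at Ciart and 94.7 ± 1.57 at Bhlhe41. Here and below the spread is the SD over n = 4 lists, 2 of each antibody, so it is not a spread over replicates alone. It was 92.6 ± 3.42 at Cry2, 90.6 ± 3.93 at Per1, 88.1 ± 3.34 at Cry1, 64.4 ± 9.42 at Per2 and 62.6 ± 7.84 at Per3. Neighbours in this order had overlapping ranges over the 4 lists except at 2 steps, from Ciart down to Bhlhe41 and from Cry1 down to Per2. Bhlhe40 ranked above Ciart in all 4 lists although their ranges met, whereas Per2 ranked above Per3 in 2 of 4. In the median gene with a peak, the highest percentile was 74.75 and 66.5 in the HIF1A lists and 72.0 and 59.5 in the ARNT lists. Per3 lay below this median in all 4 lists, and Per2 in all but HIF1A replicate 1. Some of these windows hold peaks nearest to another gene. From the best site nearest to an end of the gene itself, the mean was 85.5 at Per1, 58.6 at Per2 and 44.3 at Cry1. It did not change at the other members, and a list without a peak at the site was set to 0. Counted so, Cry1 came last and Per3 stood above Per2. At Per2 the fall came from using 1 site for all lists, not from leaving out peaks of a neighbour. Its highest ARNT peak of replicate 2 at 4% O2, at 57.8, lay at another site nearest to Per2, against 34.5 at the site used. The change of order between Per2 and Per3 rests on that rule.

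Bhlhe40, which encodes an E-box-binding repressor long known as a hypoxia-induced gene, had the highest-ranking binding of the 8. The gene (mm10 chromosome 6, 108660629 to 108666925) had 2 strong sites. A site of 1652 bp covered its lower-coordinate end (chr6:108659314-108660965), and its HIF1A percentiles at 4% O2 were 99.9 in replicate 1, rank 53 of 42701, and 99.5 in replicate 2, rank 63 of 13655. The ARNT percentiles there were 99.8, rank 48 of 24942, and 99.2, rank 81 of 9920. The site also overlapped 0610040F04Rik, an annotated long non-coding RNA gene. The other strong site lay 1326 bp beyond the higher-coordinate end of Bhlhe40 (chr6:108668251-108668834), with HIF1A percentiles of 99.6 and 98.6 and ARNT percentiles of 99.3 and 98.99.

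Both sites were also marked at 20% O2, by HIF1A replicate 2 alone. Its percentiles there were 98.9 at the gene end and 99.04 beyond the gene, and its summits lay 29 bp and 14 bp from those of the same replicate at 4% O2. HIF1A at 20% O2 replicate 1 and both ARNT lists at 20% O2 had no peak anywhere in the Bhlhe40 window. A further site inside the gene (chr6:108661156-108661745) had peaks in the 4 lists of 4% O2 only, at percentiles of 95.4 and 79.0 for HIF1A and 89.1 and 87.7 for ARNT. Of the 12 HIF1A peaks of replicate 1 at 4% O2, those outside these 3 sites ranked at a percentile of 59.0 or lower.

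Bhlhe41, the close relative of Bhlhe40, had 2 sites in all 4 lists at 4% O2, over its start and past its far end. No site was centred inside the gene. Another site, centred 1375 bp before the start, held a peak of HIF1A replicate 1 at 4% O2 alone, at a percentile of 4.33. The gene (chromosome 6, 145858243 to 145865420, minus strand) had 1 site over its start (chr6:145865402-145865759), at HIF1A percentiles of 92.8 and 85.2 and ARNT percentiles of 91.1 and 66.0 at 4% O2. The higher-ranking site lay 2119 bp past the far end of the gene (chr6:145855648-145856124), at 96.7 and 92.9 for HIF1A and 95.0 and 94.2 for ARNT. No list at 20% O2 had a peak at the start. At the far site HIF1A at 20% O2 replicate 2 had a summit at a percentile of 80.6, and the summits of the 2 oxygen levels were 120 bp apart.

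Ciart, whose product represses CLOCK-BMAL1, had 1 dominant site, which covered the start of the gene. The gene lies on chromosome 3 (95878500 to 95882257, minus strand), and the site (chr3:95881766-95882545) had HIF1A percentiles of 99.3 and 98.2 at 4% O2 and ARNT percentiles of 98.9 and 98.4. At 20% O2 HIF1A replicate 2 had a summit there at a percentile of 92.5, 22 bp from its summit at 4% O2, and the other 3 lists had no peak. The site also lay within the annotated span of the long non-coding RNA gene C920021L13Rik. The remaining 4 sites in the Ciart window had a peak in at most 1 list of each antibody.

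The promoter of Ciart, printed above, held 3 copies of the E-box, which only 29 of 32851 RefSeq promoters of the same 300 bp did (0.0883%), while 7.15% held at least 1. The copies stood at positions -116 to -111, -58 to -53 and -44 to -39, with the start base as 0, and a GCGTG stood at -158 to -154. All 3 copies lay within the HIF1A interval of replicate 1 and within both ARNT intervals at 4% O2. The HIF1A summit of replicate 2 at 4% O2 lay 9.5 bp from the centre of the middle copy, and its summit at 20% O2 lay 1.5 bp from the centre of the copy nearest the start. Of the 29 promoters with 3 or more copies, 10 (34.5%) had a peak in all 4 lists at 4% O2, against 15.6% of those with at least 1 copy, 5.13% of those with none and 5.88% of all promoters. These shares are descriptions, and a match is not a mapped binding site.

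At the other promoters the position of peaks and letters varied. The Bhlhe41 promoter held an E-box at -153 to -148, inside the 3 interval peaks of 4% O2 and 18.5 bp from the HIF1A replicate 2 summit, and 2 copies of GCGTG. Start 1 of Per1 held an E-box at -166 to -161, inside all 3 interval peaks of 4% O2, 34.5 bp from the replicate 2 summit, and inside a HIF1A peak of 20% O2 replicate 1. Start 2 of Per1 and the start of Per3 each held 1 GCGTG. Of the 7 promoters, 4 had a peak in all 4 lists at 4% O2 (Ciart, Bhlhe41, Per3 and start 1 of Per1). ACGTG or GCGTG occurred in all 7, against 43.8% of all promoters. Such a peak in all 4 lists was found at 5.88% of all promoters, and at 11.95% of those with ACGTG or GCGTG.

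**Figure D4:**
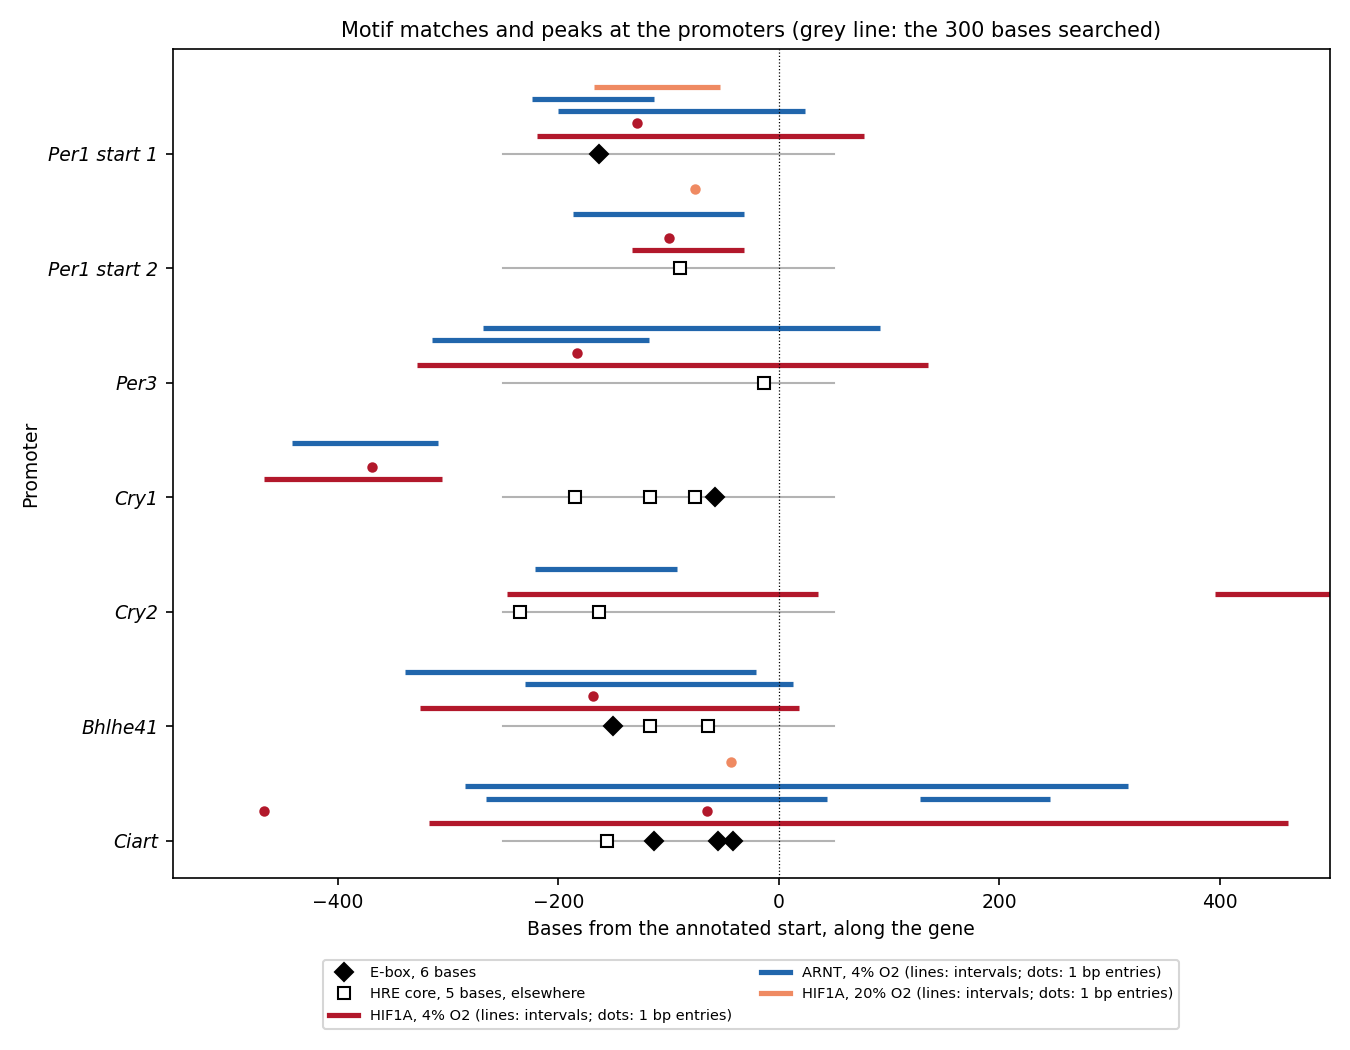
Positions of E-box and other hypoxia response element core matches (symbols) and of peaks (coloured lines and dots) at 7 promoters of 6 members, in bases from the annotated start along the gene. ARNT at 20% O2 had no peak at these promoters. Peaks lie over the E-boxes of Ciart, Bhlhe41 and start 1 of Per1, and beside the matches of Cry1.

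Cry1 had the matches but not the peaks. Its promoter held an E-box at -60 to -55, another ACGTG at -78 to -74 and 2 copies of GCGTG, and no peak of any list overlapped those 300 bp. The nearest site (chr10:85185348-85185521) was centred 380 bp before the start, with HIF1A percentiles of 83.5 and 49.1 and an ARNT peak in replicate 2 alone, at 44.5. The peaks that gave Cry1 (chromosome 10, 85131700 to 85185054) its rank lay at another gene. Its only site in all 4 lists at 4% O2 (chr10:85128011-85128259) overlapped Mterf2, a mitochondrial transcription termination factor gene, 108 bp from that gene's end by its centre. This site had HIF1A percentiles of 88.3 and 86.2, ARNT percentiles of 92.7 and 85.1, and a peak of ARNT at 20% O2 replicate 1 at 60.5, its only peak at 20% O2. By its own best site, Cry1 had a mean percentile of 44.3 at 4% O2, with the ARNT list that lacked a peak set to 0.

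Cry2 was bound inside the gene. Its leading site (chr2:92431010-92431585, in a gene spanning 92403646 to 92434085 on the minus strand) was centred 2772 bp after the start and overlapped D930015M05Rik, a long non-coding RNA gene. At 4% O2 its HIF1A percentiles were 96.5 and 91.3, and those of ARNT 93.9 and 88.5. HIF1A at 20% O2 replicate 2 had a summit there at 33.0, which lay 164 bp from the summit at 4% O2. A site over the start itself (chr2:92434033-92434316) had peaks of replicate 1 only, at 61.4 for HIF1A and 75.9 for ARNT. Replicate 2 of neither antibody had a peak there.

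Per1 had the most sites in its window, 13, and was the one member with a peak in both HIF1A lists at 20% O2. Of these sites, 9 had an end of Per1 as the nearest protein-coding gene end, fewer than the 11 counted so at Bhlhe40. Per1 spans 69095108 to 69109965 on chromosome 11, plus strand. At 4% O2 it had 3 sites in all 4 lists. One covered the lower-coordinate end of the span (chr11:69094739-69095377), at percentiles of 93.0 and 83.6 for HIF1A and 91.7 and 73.6 for ARNT. One covered start 1 (chr11:69098725-69099026), at 80.3 and 62.8 for HIF1A and 18.8 and 20.2 for ARNT, a low rank for ARNT in both lists. The site with the highest HIF1A percentiles was at the neighbouring gene Vamp2, a synaptic vesicle protein gene (chr11:69088148-69088601), at 95.5 and 89.0 for HIF1A and 84.7 and 86.3 for ARNT.

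The highest-ranking HIF1A peaks at 20% O2 in the Per1 window lay beside tRNA genes. Of the 4 peaks of replicate 1, 3 lay at sites within 200 bp of a tRNA gene, as did 3 of the 8 of replicate 2. They lay at n-TTagt5, n-TScga3 and n-TGgcc5, the last beside Hes7, and reached percentiles of 74.1 and 92.8 at n-TTagt5. The percentiles were 73.4 and 92.1 at n-TGgcc5, but only 9.99 and 17.1 at n-TScga3. At 4% O2 the peak of HIF1A replicate 1 at n-TTagt5 ranked at 10.9, and replicate 2 had none. Away from tRNA genes, replicate 1 at 20% O2 had 1 peak, at start 1 with a percentile of 5.78, and replicate 2 had none at that site. All 3 sites shared by both HIF1A lists at 20% O2 lay beside tRNA genes. Without peaks near tRNA genes, a count added after seeing the data, Per1 still had a peak in each list, though at different sites. ARNT at 20% O2 replicate 1 had 1 peak in the window, over the lower-coordinate gene end, at 18.5.

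Per2 and Per3 were bound at lower ranks. Per2 (chromosome 1, 91415977 to 91459351) had a site over its higher-coordinate end (chr1:91459260-91459794), where HIF1A ranked at 78.4 and 60.7 at 4% O2, and ARNT at 60.7 and 34.5. At 20% O2 HIF1A replicate 2 had a peak there at 35.8 and ARNT replicate 1 at 29.1. Its other site in all 4 lists (chr1:91414130-91414512) was centred 283 bp from an end of the neighbouring gene Hes6, a Notch-pathway repressor gene. Per3 (chromosome 4, 150997018 to 151044707, minus strand) had a single site, over its start (chr4:151044530-151044993). HIF1A ranked there at 74.0 and 60.9 and ARNT at 56.2 and 59.2, and no list at 20% O2 had a peak. The site also overlapped the annotated gene Gm38529. Its centre was nearest to the end of Per3, but the HIF1A summit of replicate 2 and the ARNT peak of replicate 1 lay nearer to the end of Gm38529. Of the 14 sites in all 4 lists at 4% O2, 11 had an end of the member itself as the nearest protein-coding gene end, and those at Vamp2, Hes6 and Mterf2 did not.

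Of 19 other clock genes, 12 had a peak in both HIF1A lists (34.5% of all genes did) and 10 in both ARNT lists (31.6%) at 4% O2. At 20% O2 both HIF1A lists had a peak at 6 of the 19 (10.7% of all genes) and both ARNT lists at 4 of the 19 (7.25%). The difference from the 8 repressor genes was not tested. The activator gene Clock had no peak in any list, and Rora had 1, in HIF1A at 20% O2 replicate 2. By mean highest percentile at 4% O2 the leading genes were Csnk1d, a kinase gene for PER proteins, at 99.96, Dbp, a D-box activator gene, at 96.6, Nr1d1, which encodes the repressor REV-ERBα, at 92.9, and Hlf at 84.6. The highest HIF1A peak in the Csnk1d window was nearest to Slc16a3, a lactate transporter gene, and that in the Dbp window to Sphk2.

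The genes whose 8 highest percentiles lay closest to those of a member, by Euclidean distance over the 8 lists, were found for each. For Bhlhe40 they were Cyb561d1 and Atxn7l2, both at 0.261 and with the same percentiles as each other in all 8 lists. For Ciart they were BC028528, at 0 because its window shares the same peaks, and Armh4 at 0.989. For Bhlhe41 they were Dcps and Tirap, both at 1.87 and also with the same percentiles as each other. For Cry2 they were Fuca1 at 4.31 and Ccdc194 at 4.94, for Per3 Gpr3 at 5.68 and Ppie at 7.22, and for Per2 Psph at 10.2 and Cct6a at 12.1. For Cry1 they were Mterf2, at 0 by the shared site, and Rabl6 at 7.31, and for Per1 Pik3ip1 at 6.95 and Stard4 at 7.03.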

How the data were processed

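The members and gene lists were chosen with earlier results of these data known. The submitters' processing notes name BWA, Picard, MACS2 and the mm10 build, with no version or setting. Per the file names and labels, the authors called peaks for each ChIP sample against an input. The file names give input 5 for both HIF1A replicate 2 lists and input 4 for the other 6 lists. The 2 ARNT lists of a group thus share an input number, and the 2 HIF1A lists do not. Each deposited list gives a position and a score per peak, whose scale no header names. Scores were therefore ranked within a list only. Genes and spans came from RefSeq GRCm38.p6, and the gene table has no strand, so starts came from the promoter table. A peak was assigned to a gene by an overlap of at least 1 bp with its span plus 10 kb, in Python 3.11.15 (pandas 2.3.3, numpy 2.4.6). The number of peaks was compared between oxygen levels by a two-sided exact permutation test. The code was tested on simulated lists. The 4 inputs have no list here. Named were the 8 members, their neighbours, the 4 highest of 19 other clock genes (all matched by symbol), and the 2 most similar genes to each member. Clock and Rora were named after their values were seen. Alternatives changed the window, the peaks used, the site width, the replicates and the test's blocks.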

Additional observations from a re-analysis of the deposited data

How the results depend on the processing

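The counts at 4% O2 depended on the window and on the peaks used. With the gene span alone, 4 members had a peak in both HIF1A lists at 4% O2 (Per1, Per2, Cry2 and Bhlhe40) and 5 in both ARNT lists (the same and Ciart), against 18.3% and 18.8% of all genes. With the 1808 highest-scoring peaks of each list the counts were 4 and 4 (Cry2, Bhlhe40, Bhlhe41 and Ciart for both antibodies), against 6.63% and 5.63%, and 5 members had a site with both antibodies, against 7.76%. With spans plus 50 kb, 2 members were counted for HIF1A and 4 for ARNT at 20% O2, against 22.3% and 15.3% of all genes. Leaving out a replicate gave 1 to 6 members for HIF1A at 20% O2, against 11.3% to 31.7% of all genes. For ARNT at 20% O2 it gave 0 to 3 members, against 7.60% to 22.3%. Counted only from peaks nearest to an end of the gene itself, an alternative chosen after seeing the data, the 4% O2 counts were 7 for HIF1A (without Per3) and 6 for ARNT (without Per3 and Cry1), against 26.1% and 22.2% of all genes.

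Of 101 alternatives for the oxygen difference at single members, 100 had the same direction. Cry1 with the gene span alone had no peak in any list and is not among the 101. The same holds for Per2 and Per3 with the 1808 highest-scoring peaks. The size moved by over 1.5 times without replicate 1 at Per1, Per2, Cry2 and Bhlhe40 and without replicate 2 at Per1 and Cry2. The window and the peaks used moved it too. With the gene span alone it fell from 2 to 0.5 at Bhlhe41 and from 2.5 to 1 at Ciart. With spans plus 50 kb it rose from 3 to 8.75 at Per1, and with the 1808 highest-scoring peaks it fell from 1.75 to 0.25 at Cry1. Per1 reversed with the 1808 highest-scoring peaks (-0.50 peaks). The design cannot give a p under 0.0556, so no alternative could pass the threshold, and those without a replicate have no test. With the replicate number as a block, the exact permutation test (16 arrangements, smallest p 0.125) called 0 genes, and 0 with the HIF1A numbers crossed. Replicate deviations correlated at -0.49 between the HIF1A groups and 0.58 between the ARNT groups over 13224 genes. Depth is unknown, so an absent peak does not show absent binding.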
